A study of Mus musculus with 10 samples.

Results

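The 10 genes described here are markers of Kupffer cells, the resident macrophages of the liver, and of macrophages in general: Clec4f, Vsig4, Cd5l, Adgre1, Csf1r, Cd68, C1qa, C1qb, C1qc and Marco. They were chosen by name from a list of known markers, and all 10 were found among the 49585 genes counted. Bulk RNA was sequenced from livers of a mouse model of liver cancer, named in the series title for the combined knockout of the Rb family of cell cycle inhibitors. The labels describe 10 samples in 5 groups of 2, which are Sox9-derived organoids, Ck19-derived organoids and cells sorted as Epcam-high, Thy1-positive or Epcam-negative. The study's protocol gathered YFP-positive cells, in which Cre had recombined floxed alleles, by flow sorting of digested livers or lesions. No sample label gives a genotype, a promoter driving Cre, an age, a sex or a number of animals or clones.

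Count columns could be tied by name to the Sox9-derived and Ck19-derived organoids, with 2 libraries each. The columns Sox9_1 and Sox9_2 were taken for the Sox9-derived group. A further pair of columns carries the name Sox9 with an added TKO tag and sits in a table of its own. By name alone that pair could also stand for the Sox9-derived samples, and it was analysed as an alternative to them. Its values go against that label. Epcam, the surface protein of organoid epithelium, stood at 8.99 and 5.61 CPM (counts per 1000000 fragments of the library) in the TKO-tagged columns. It stood at 2669 and 3833 CPM in the Sox9-derived group and at 2324 and 2101 CPM in the Ck19-derived group. Of the other biliary markers, Krt19 and Krt7 were at 1.61 CPM or less in the TKO-tagged columns. Sox9 itself did not follow them. It stood at 63.8 and 106 CPM there, against 567 and 562 CPM in the Sox9-derived and 97.0 and 78.4 CPM in the Ck19-derived group. Albumin (Alb), the main product of hepatocytes, stood at 21740 and 13158 CPM in the TKO-tagged columns, against 9.40 and 1.24 CPM in the Sox9-derived and 20.4 and 9.10 CPM in the Ck19-derived organoids. Which labelled group the TKO-tagged columns belong to is not settled by the labels, so they are called the TKO-tagged Sox9 columns throughout. Column tag, deposited table and cell content change together, and their parts in any difference cannot be told apart. Library totals over all genes were 53280136 and 59664959 fragments in the TKO-tagged columns, and from 31883180 to 36606008 in the organoid libraries.

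Kupffer cells line the liver sinusoids, where they take up particles, microbes and aged red cells from the blood. They depend on signals through the receptor Csf1r, whose ligands are Csf1 and Il34. In mouse liver the lectin Clec4f is a marker of Kupffer cells, while Adgre1 (the F4/80 antigen), Cd68 and the C1q chains are shared by many tissue macrophages. In bulk RNA, fewer cells of a type and less RNA per cell cannot be told apart.

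Promoter windows are shown for 4 members whose levels bear on the description below, namely the neighbouring genes C1qb and C1qc, which were high together in both TKO-tagged columns, the scavenger receptor gene Marco, which was high in 1 of them, and Clec4f. Each runs from 250 bases before to 50 bases after the gene's start, from RefSeq on GRCm38.p6, and reads in the gene's own direction. Capitals mark the motif GAGGAA or its reverse complement TTCCTC, a form of the site bound by PU.1, the macrophage transcription factor encoded by Spi1. No window was held for C1qa and Adgre1, and Csf1r was left out by its chromosome, a step not applied to all windows. Windows of the other 7 of the 10 members were read. Of these 7, 6 hold the motif on either strand, a count that does not cover the whole list. The share among all 32851 windows of the same length was 28.3%. A match is a description of these letters only.
C1qb, chr4:136886151-136886450, minus strand: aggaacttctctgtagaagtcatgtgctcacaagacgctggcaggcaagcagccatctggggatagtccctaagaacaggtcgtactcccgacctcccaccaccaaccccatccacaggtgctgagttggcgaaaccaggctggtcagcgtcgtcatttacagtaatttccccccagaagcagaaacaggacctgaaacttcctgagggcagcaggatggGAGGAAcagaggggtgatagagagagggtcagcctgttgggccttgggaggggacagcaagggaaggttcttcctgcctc
C1qc, chr4:136892865-136893164, minus strand: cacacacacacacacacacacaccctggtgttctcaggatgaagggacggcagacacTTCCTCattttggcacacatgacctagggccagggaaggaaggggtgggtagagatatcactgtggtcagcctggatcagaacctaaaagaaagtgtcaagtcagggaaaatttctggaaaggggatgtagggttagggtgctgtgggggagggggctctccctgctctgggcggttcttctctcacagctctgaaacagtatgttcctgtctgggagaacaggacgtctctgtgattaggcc
Marco, chr1:120504975-120505274, minus strand: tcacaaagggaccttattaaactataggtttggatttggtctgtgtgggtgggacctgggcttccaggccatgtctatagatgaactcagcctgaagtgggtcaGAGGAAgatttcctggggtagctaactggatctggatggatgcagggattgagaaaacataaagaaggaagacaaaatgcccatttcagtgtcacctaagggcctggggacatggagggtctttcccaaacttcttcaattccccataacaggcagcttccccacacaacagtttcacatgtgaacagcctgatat
Clec4f, chr6:83656067-83656366, minus strand: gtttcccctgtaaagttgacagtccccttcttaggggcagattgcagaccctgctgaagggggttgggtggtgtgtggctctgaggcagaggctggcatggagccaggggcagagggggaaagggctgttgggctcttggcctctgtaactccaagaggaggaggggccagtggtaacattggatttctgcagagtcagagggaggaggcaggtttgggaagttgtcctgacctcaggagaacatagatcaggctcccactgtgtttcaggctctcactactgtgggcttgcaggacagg

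In both kinds of organoid, 8 of the 10 genes were at or near the limit of detection. The sum of these 8 (all but Cd68 and Csf1r) was 1.04 and 0.784 CPM in the Sox9-derived and 1.19 and 2.08 CPM in the Ck19-derived organoids, from 38, 26, 38 and 68 fragments. In the TKO-tagged columns the same 8 genes summed to 597 and 444 CPM, from 31824 and 26472 fragments. Every member had at least 1 fragment in both TKO-tagged columns, and each organoid library had 9 of the 10. The share of all genes near the limit of detection in organoids was not computed. Counting error alone puts the level that 0 fragments allow at up to 0.0563 and 0.0503 CPM in the TKO-tagged columns, 0.082 and 0.0905 CPM in the Sox9-derived and 0.0941 and 0.0916 CPM in the Ck19-derived libraries, taking 3 fragments as the floor.

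**Figure D1:**
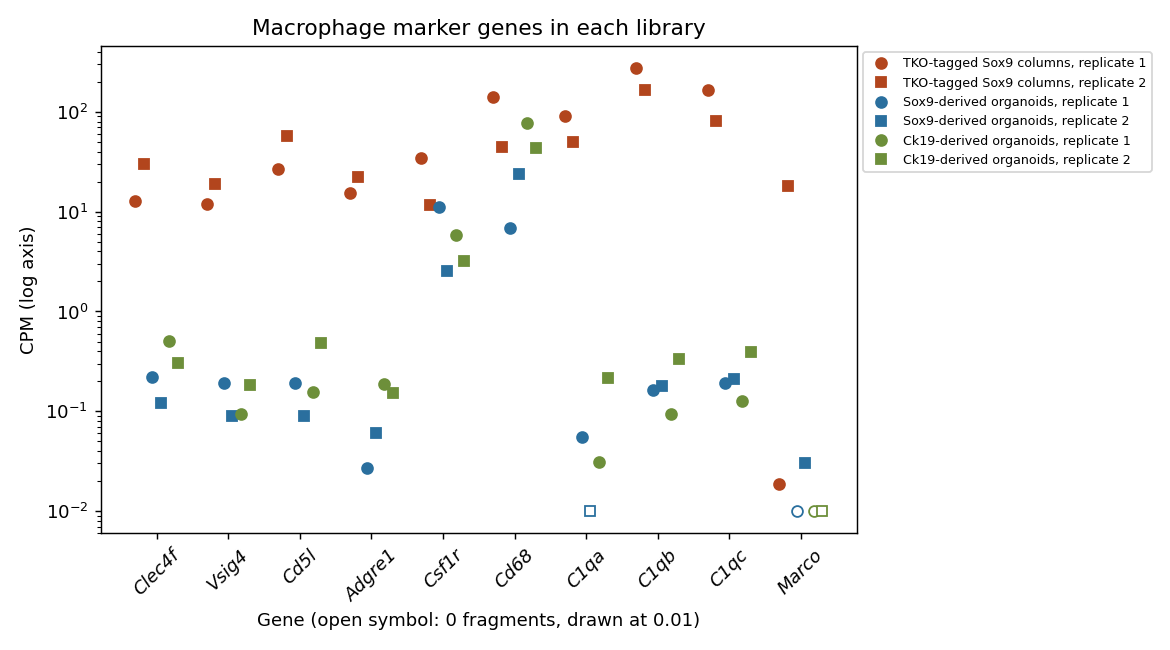
CPM (log axis) of each of the 10 macrophage marker genes in the 6 libraries, with 1 symbol per library and open symbols for 0 fragments. Apart from Cd68, Csf1r and Marco, the TKO-tagged Sox9 columns sit at 11.8 CPM or more and the organoids at 0.502 CPM or less.

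Among the surface markers of Kupffer cells, the lectin Clec4f stood at 12.7 and 30.02 CPM in the TKO-tagged columns, against 0.219 and 0.121 CPM in Sox9-derived and 0.502 and 0.305 CPM in Ck19-derived organoids. The organoid values rest on 8, 4, 16 and 10 fragments. The organoid libraries all lay well below both TKO-tagged columns. Vsig4, a complement receptor that takes up C3-coated particles, stood at 11.8 and 18.8 CPM in the TKO-tagged columns, against 0.191 and 0.0905 CPM in the Sox9-derived and 0.0941 and 0.183 CPM in the Ck19-derived organoids. Adgre1, an adhesion receptor, stood at 15.4 and 22.3 CPM, against 0.0273 and 0.0603 CPM in the Sox9-derived and 0.188 and 0.153 CPM in the Ck19-derived organoids. For both genes the values of each organoid library came from 7 fragments or fewer.

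Marco, a scavenger receptor for bacteria and particles, divided the TKO-tagged columns. It had 1 fragment in replicate 1 and 1074 fragments in replicate 2, or 0.0188 and 18.0005 CPM. The Sox9-derived organoids had 0 and 1 fragment and the Ck19-derived organoids 0 in both libraries. TKO-tagged replicate 1 was thus as low as the organoids, and replicate 2 stood alone. The gene was below the count filter of the edgeR fit. With 3 fragments over the pair as the floor for the Ck19-derived organoids, the TKO-tagged pair was at least 205-fold higher, but that value rests on replicate 2 alone.

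Among the secreted products, Cd5l, a macrophage protein that circulates with immunoglobulin M, stood at 26.8 and 56.9 CPM in the TKO-tagged columns, against 0.191 and 0.0905 CPM in the Sox9-derived and 0.157 and 0.489 CPM in the Ck19-derived organoids. The genes of the C1q chains, which form the recognition part of the first complement component, were high in both TKO-tagged columns. C1qb had 274 and 165 CPM there, from 14617 and 9871 fragments, against 6 and 6 fragments in the Sox9-derived and 3 and 11 fragments in the Ck19-derived organoids. C1qc had 165 and 81.7 CPM in the TKO-tagged columns, against 7 and 7 fragments in the Sox9-derived and 4 and 13 in the Ck19-derived organoids. C1qa had 90.8 and 50.4 CPM in the TKO-tagged columns, against 2 and 0 fragments in the Sox9-derived and 1 and 7 in the Ck19-derived organoids. For each of these 4 genes, every organoid library lay below both TKO-tagged columns. The share of all genes with such a gap was not computed. By a different measure, edgeR called 15.0% of all tested genes higher in the TKO-tagged columns than in the Ck19-derived organoids.

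The 3 C1q genes kept similar proportions in both TKO-tagged columns. C1qa held 17.1% and 16.9% of their summed fragments, C1qb 51.7% and 55.6%, and C1qc 31.2% and 27.5%. The genes lie side by side on the minus strand of chromosome 4 (GRCm38, C1qb from 136880129 to 136886187, C1qc from 136889804 to 136893065 and C1qa from 136895917 to 136898803), and none of their exon bases is shared with another gene. They made up 68.7% and 59.5% of the summed CPM of the 10 genes in the TKO-tagged columns, against 2.15% and 1.45% in the Sox9-derived and 0.295% and 1.94% in the Ck19-derived organoids.

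Cd68 and Csf1r were the members that organoids also expressed. Cd68, a glycoprotein of late endosomes and lysosomes, stood at 140 and 44.6 CPM in the TKO-tagged columns, against 6.86 and 23.6 CPM in the Sox9-derived and 78.1 and 43.5 CPM in the Ck19-derived organoids. TKO-tagged replicate 2 lay between the Ck19-derived libraries, and both Sox9-derived libraries lay below all others. Cd68 alone gave 36.01% and 87.7% of the summed CPM of the list in the Sox9-derived and 91.7% and 89.2% in the Ck19-derived organoids, against 18.2% and 8.92% in the TKO-tagged columns. Csf1r stood at 34.6 and 11.7 CPM in the TKO-tagged columns, against 11.1 and 2.53 CPM in the Sox9-derived and 5.83 and 3.21 CPM in the Ck19-derived organoids. Sox9-derived replicate 1 was close to TKO-tagged replicate 2, and the other organoid libraries were lower. Of the exon bases of Csf1r, 17.8% are shared with Hmgxb3, and counting ignored strand.

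**Figure D2:**
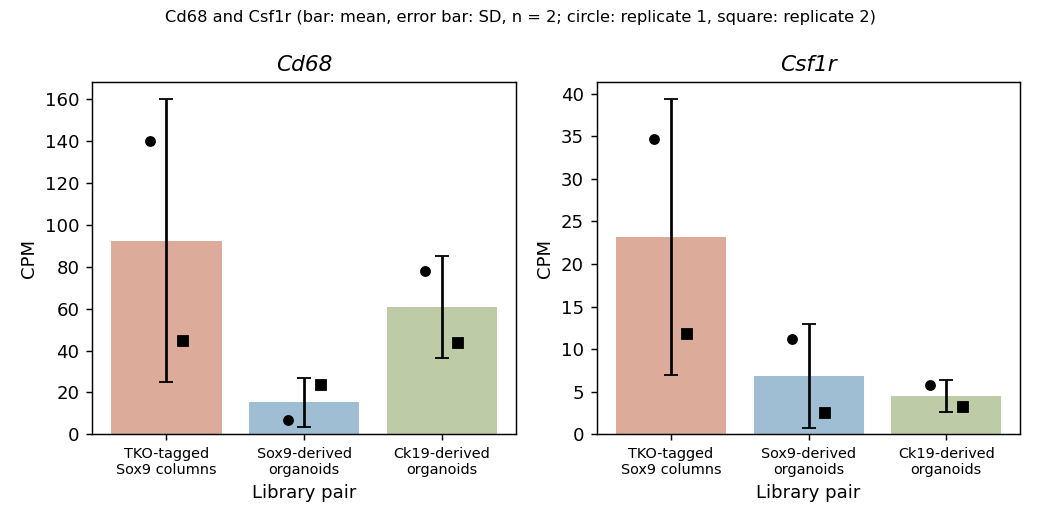
CPM of Cd68 (left) and Csf1r (right) in each library pair. Bars are means, error bars SD (n = 2), circles replicate 1 and squares replicate 2, and the Sox9-derived pair is lowest for Cd68, at 15.3 ± 11.9 CPM.

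Compared per length, as CPM per kilobase of exon, C1qb was the highest of the 10 genes in both TKO-tagged columns, at 252 and 152 CPM per kilobase. Cd68 followed at 112 and 35.5, C1qa at 87.3 and 48.5 and C1qc at 85.7 and 42.3 CPM per kilobase, so the order of Cd68 among these was not the same in both columns. Cd5l came next at 13.2 and 28.0 CPM per kilobase. The other 5 genes lay between 0.00975 and 7.96 CPM per kilobase in replicate 1 and between 2.41 and 12.7 in replicate 2, with neighbours that differed by less than their spread. In each of the 4 organoid libraries the order began with Cd68 and then Csf1r. Their mean levels were 12.1 and 1.40 CPM per kilobase in the Sox9-derived and 48.4 and 0.925 in the Ck19-derived organoids. Every other member averaged under 0.2 CPM per kilobase there.

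The first test compared Sox9-derived with Ck19-derived organoids by edgeR's quasi-likelihood test over 16653 genes. Of the 10 genes, 3 passed the count filter (Clec4f, Csf1r and Cd68) and 0 were called. Of all tested genes 0.570% were called, 0.186% higher and 0.384% lower. At an unadjusted p under 0.05 the count among them was 1, which was Cd68, where 16.8% of all tested genes passed that threshold. DESeq2 called Cd68. Cd68 averaged 15.3 ± 11.9 CPM in the Sox9-derived and 60.8 ± 24.4 CPM in the Ck19-derived organoids (SD, n = 2 each), with a log2 fold change of −1.99 (SE 0.67, edgeR adjusted p = 0.244). Its DESeq2 adjusted p was 0.0162, in a fit that called 1628 of 17174 genes. It was not called by limma-voom (adjusted p = 0.176), by edgeR without a count filter (adjusted p = 0.146) or by edgeR with a replicate block (adjusted p = 0.310). Leaving out 1 library, its log2 fold change in edgeR ran from −3.15 to −1.35. Csf1r had a log2 fold change of 0.59 (SE 0.80, edgeR adjusted p = 0.772), which was −0.82 (adjusted p = 0.555) without Sox9-derived replicate 1. Clec4f had a log2 fold change of −1.23 (SE 0.79, edgeR adjusted p = 0.501). The other 7 members were below the filter, and edgeR without a count filter called 0 of the 10. From the fragments pooled over each pair, the CPM ratio of Sox9-derived over Ck19-derived organoids was 0.253 for Adgre1 (95% counting interval 0.0453 to 0.957), 0.428 for Clec4f (0.197 to 0.878) and 0.441 for Cd5l (0.186 to 0.979). For Vsig4, C1qa, C1qb and C1qc the interval spanned 1. These intervals cover counting error alone and not the spread between libraries. The labels do not state that paired libraries came from separate animals or cultures. The p-values thus cover the spread between these libraries alone, which may be technical.

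With the TKO-tagged columns in place of the Sox9-derived ones, the markers were much higher than in the Ck19-derived organoids. Of the 10 genes, 9 passed the count filter, and edgeR called 8 higher and 0 lower, where 28.9% of 17938 tested genes were called, 15.0% higher and 14.0% lower. Of these 9, all but Clec4f, Csf1r and Cd68 passed the filter only through the TKO-tagged columns, where they were high. The count, and the fold changes and adjusted p-values below of genes that passed this way, describe these pairs and support nothing further. C1qb averaged 219.9 ± 77.0 CPM in the TKO-tagged columns and 0.215 ± 0.171 CPM in the Ck19-derived organoids (SD, n = 2 each), a log2 fold change of 10.74 (SE 0.72, edgeR adjusted p = 0.00167). C1qa and C1qc had log2 fold changes of 9.89 and 9.64. Those of the surface and secreted markers Cd5l, Adgre1, Vsig4 and Clec4f were 7.75, 7.51, 7.50 and 6.45, with edgeR adjusted p from 0.00191 to 0.00503. Csf1r averaged 23.2 ± 16.2 CPM in the TKO-tagged columns and 4.52 ± 1.86 CPM in the Ck19-derived organoids, a log2 fold change of 3.13 (SE 0.71, edgeR adjusted p = 0.0310). Beside these genes, the hepatocyte markers summed to 47329 and 31773 CPM in the TKO-tagged columns, against 123 and 158 CPM in Ck19-derived organoids, and the liver endothelial markers to 106 and 79.1 CPM, against 0.784 and 0.672 CPM. Their part in the comparison was not tested. Cd68 was not called, at 1.37 (SE 0.65, edgeR adjusted p = 0.181), though it was without TKO-tagged replicate 2 (2.05, adjusted p = 0.00578).

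Without Ck19-derived replicate 1 or replicate 2, the log2 fold change of Clec4f was 6.86 and 6.10 and that of Csf1r 3.63 and 2.71. Neither gene was called any longer in these fits. Without TKO-tagged replicate 1 or replicate 2, Clec4f was at 6.95 and 5.81 and Csf1r at 2.12 and 3.78. The fold changes of the main fit use TMM scaling, which moved the median of all genes by 0.76 on the log2 scale relative to library totals. On library totals the log2 fold change of C1qb was 9.97, that of Csf1r 2.36 and that of Cd68 0.60. In that fit 8 of the 10 genes were again called higher, where 7121 of 17938 tested genes were called, 1960 of them higher. Of all calls 27.5% were higher, against 51.7% with TMM.

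**Figure D3:**
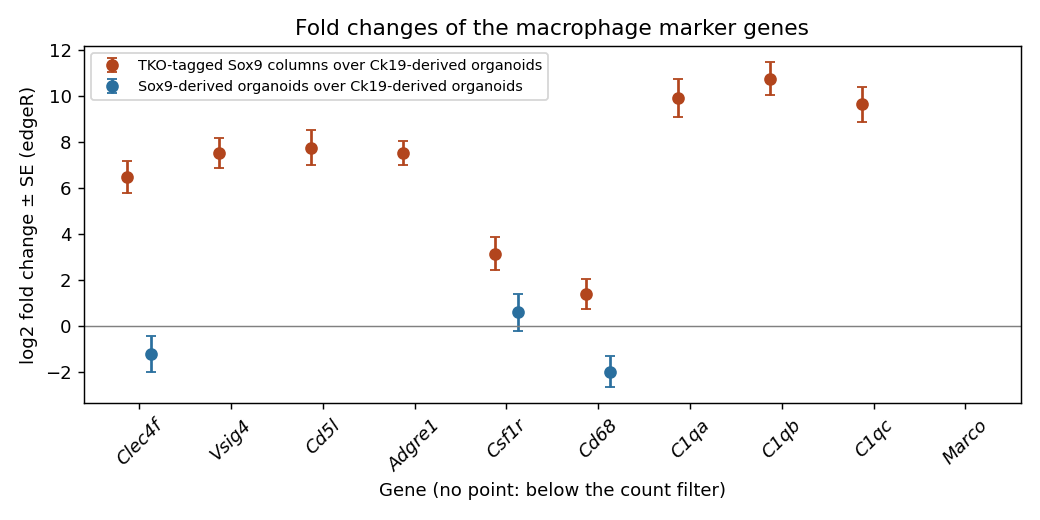
log2 fold change with its SE from edgeR for each member that passed the count filter, over the Ck19-derived organoids. The TKO-tagged Sox9 columns are above 0 for all 9 members shown, lowest for Cd68 at 1.37, and the Sox9-derived organoids lie at −1.23, 0.59 and −1.99 for Clec4f, Csf1r and Cd68.

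The TKO-tagged columns differed from one another in which markers were high. Besides Marco, 4 members were higher in replicate 2. Clec4f was 2.36-fold higher there (95% counting interval 2.16 to 2.58), Cd5l 2.13-fold (1.997 to 2.26), Vsig4 1.60-fold (1.45 to 1.76) and Adgre1 1.45-fold (1.33 to 1.58). The other 5 members were higher in replicate 1. Cd68 was 3.14-fold higher in replicate 1 (3.01 to 3.29), Csf1r 2.95-fold (2.70 to 3.22), C1qc 2.02-fold (1.95 to 2.10), C1qa 1.80-fold (1.72 to 1.88) and C1qb 1.66-fold (1.62 to 1.70). With 1 library on each side there is no test of these differences, and the intervals cover counting error only.

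Other macrophage genes also differed between these columns, and more of them were higher in replicate 1. The share of all genes higher in replicate 1 by the same interval was not computed, so these counts describe the listed genes only. Of the other surface genes of Kupffer cells and tissue macrophages, Timd4, a receptor for dying cells, was 6.20-fold higher in replicate 2 (4.60 to 8.51), and Folr2, a folate receptor of resident macrophages, 6.17-fold (3.26 to 12.9). The remaining 7 of 9 were higher in replicate 1, among them the haemoglobin scavenger receptor Cd163, with 93 fragments in replicate 1 and 2 in replicate 2. Of the monocyte and recruited macrophage genes, 6 of 7 were higher in replicate 1. Gpnmb, a glycoprotein of lipid-laden macrophages, was 9.15-fold higher there (7.12 to 11.9), Itgax, the integrin chain CD11c, 7.97-fold (6.15 to 10.5), and Trem2, a lipid-sensing receptor, 6.17-fold (4.70 to 8.20). Itgam, the integrin chain CD11b, was 3.69-fold higher in replicate 2 (2.08 to 6.99). The transcription factor genes Spi1, Spic, Nr1h3, Irf8 and Id3 were all higher in replicate 1. Of the 12 shared myeloid genes, 9 were higher in replicate 1, 1 was higher in replicate 2 and 2 had intervals that spanned 1. Of the 6 complement genes, 4 were higher in replicate 1 and 2 in replicate 2.

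**Figure D4:**
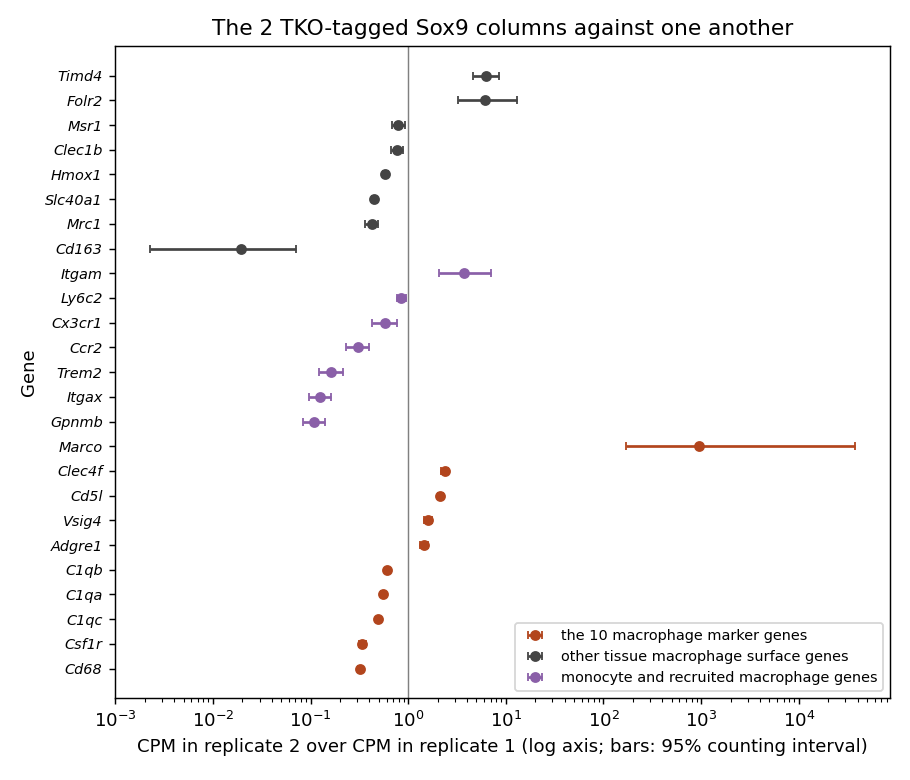
CPM in replicate 2 over CPM in replicate 1 (log axis) of the TKO-tagged Sox9 columns, with 95% counting intervals. Shown are the members, the other surface genes and the monocyte and recruited macrophage genes with fragments in both columns. Marco, Clec4f, Cd5l, Vsig4 and Adgre1 lie right of 1 with Timd4, Folr2 and Itgam, and the other genes shown lie left of 1.

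Markers of other cells also differed between these columns, in both directions. Erythroid markers summed to 182 CPM in replicate 1 and 1663 CPM in replicate 2 of the TKO-tagged columns, and neutrophil markers to 18.3 and 77.6 CPM. Pan-leukocyte markers summed to 190 and 112 CPM, liver endothelial markers to 106 and 79.1 CPM and hepatocyte markers to 47329 and 31773 CPM. Stellate cell and fibroblast markers summed to 195 and 118 CPM, T and NK cell markers to 19.6 and 8.21 CPM and dendritic cell markers to 17.2 and 7.76 CPM. Biliary epithelial markers summed to 74.1 and 113 CPM, nearly all from Sox9 (63.8 and 106 CPM), and B cell markers to 2.65 and 2.63 CPM. Epcam and Krt7 were lower in replicate 2, and Krt19 was higher, at 0.619 and 1.61 CPM. Sums can hide members that go the other way. Among hepatocyte markers Cps1 was higher in replicate 2, at 279 and 613 CPM, while Alb, Apoa1 and Ttr were lower. Ptprc was about level, at 14.1 and 15.3 CPM, and the other pan-leukocyte markers were lower in replicate 2. The part of all these markers in the differences between the columns was not tested.

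A wider list of 42 genes of the macrophage pathway was read beside the members. In Sox9-derived against Ck19-derived organoids, 17 passed the count filter and edgeR called 0 of them (6 at an unadjusted p under 0.05, a threshold that 16.8% of all tested genes passed), with a median log2 fold change of 0.27 against 0.01 for all genes. The most abundant of these in organoids were Cd14, Ctsd, Lamp1, Lamp2, C3 and Id3. Cd14, a coreceptor for bacterial lipopolysaccharide, stood at 1336 and 1126 CPM in Sox9-derived and 987 and 1057 CPM in Ck19-derived organoids. C3, the central complement component, stood at 460 and 424 CPM in the Sox9-derived and 65.7 and 33.01 CPM in the Ck19-derived organoids (log2 fold change 3.16, edgeR adjusted p = 0.064). The ligand Csf1 stood at 130 and 21.8 CPM in the Sox9-derived and 25.5 and 23.1 CPM in the Ck19-derived organoids (log2 fold change 1.64, edgeR adjusted p = 0.393).

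Other genes that macrophages express were unequally present in the organoids. Of the 42 genes, 25 were under 0.5 CPM in all 4 organoid libraries and 17 reached that level in at least 1. The share of all genes under 0.5 CPM was not computed, so these counts describe the listed genes only. By a different measure, 17 of the 42 genes and 16653 of all 49585 genes passed the count filter of the organoid fit. Spi1 had at most 0.0305 CPM in any organoid library, and the myeloid lysozyme Lyz2 at most 0.211 CPM. The Fc receptor chain Fcer1g and its partner Tyrobp, adaptors of myeloid receptors, stayed at 0.122 CPM or less. Irf8, a transcription factor of myeloid and lymphoid cells, stood at 4.21 and 0.0905 CPM in the Sox9-derived and 5.30 and 4.06 CPM in the Ck19-derived organoids. Aif1, the macrophage protein Iba1, stood at 1.86 and 0.633 CPM in the Sox9-derived and 1.69 and 2.08 CPM in the Ck19-derived organoids. Nr1h3, the sterol receptor LXR alpha, which hepatocytes also express, stood at 8.14 and 13.03 CPM in the Sox9-derived and 2.79 and 8.0005 CPM in the Ck19-derived organoids. The 5 pan-leukocyte markers summed to 0.164 and 0.181 CPM in the Sox9-derived and 3.39 and 2.60 CPM in the Ck19-derived organoids. Most of the Ck19-derived sum came from Cd53 (2.07 and 2.05 CPM) and Coro1a (1.04 and 0.489 CPM). Ptprc, Cd52 and Laptm5 stayed at 0.188 CPM or less there. Whether macrophages in the cultures contributed to the Cd68 and Csf1r levels was not tested.

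With the TKO-tagged columns in place, 40 of the 42 genes passed the filter, and edgeR called 31 higher, 1 lower and 8 in neither direction than in the Ck19-derived organoids, where 28.9% of all tested genes were called, 15.0% higher and 14.0% lower. Of these 40 genes, 24 passed the filter only with the help of the TKO-tagged columns, since at least 1 Ck19-derived library was below its level of 0.232 CPM. Of these 24 genes 23 were called higher. As they had to reach that level in at least 1 TKO-tagged column to be tested, that count supports nothing further. Of the 16 genes that reached the level in both Ck19-derived libraries, 8 were called higher and 1 lower. Among transcription factor genes, Spi1, Spic, Nr1h3 and Irf8 were higher, and Id3 was not called. All 6 complement genes were higher (C1ra, C1s1, Serping1, C3, C3ar1 and C5ar1), of which C3 stood at 2421 and 3658 CPM in the TKO-tagged columns, against 65.7 and 33.01 CPM in the Ck19-derived organoids. Hepatocytes also make C3, C1ra, C1s1 and Serping1, and hepatocyte markers were high in these columns. Of the surface genes, Timd4, Mrc1, Msr1 and Clec1b were higher, and 3 were not called. All 7 monocyte and recruited macrophage genes were higher (Itgam, Itgax, Ly6c2, Ccr2, Cx3cr1, Trem2 and Gpnmb). Of the shared myeloid genes, Fcgr1, Fcgr3, Fcer1g, Tyrobp, Aif1, Lyz1, Lyz2, Ctss and Lamp2 were higher, and Cd14, Lamp1 and Ctsd were not called. Lyz2 stood at 535 and 554 CPM in the TKO-tagged columns, against 0.157 and 0.183 CPM in the Ck19-derived organoids. Reads that match both Lyz1 and Lyz2 equally well were dropped, so both values are uncertain. The only gene called lower was the ligand Csf1, at 5.16 and 6.08 CPM in the TKO-tagged columns, against 25.5 and 23.1 CPM in the Ck19-derived organoids (log2 fold change −1.36, edgeR adjusted p = 0.0455). Il34 stood at 3.66 and 1.32 CPM in the TKO-tagged columns and 7.40 and 7.63 CPM in Ck19-derived organoids, and it was not called (edgeR adjusted p = 0.434).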

How the data were processed

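Per the file headers, the deposited counts are fragments assigned to each gene by featureCounts 1.5.0-p3, with Ensembl release 87 on GRCm38. The authors kept primary alignments with both ends mapped and a minimum mapping quality of 10, ignoring strand, so reads shared by near-identical genes were dropped. STAR 2.5.4b is listed in the submitters' processing notes. The counts were not normalized. Names alone linked columns to samples. The names of 4 more columns fitted no sample label, so those columns were left out, and the 3 groups of sorted cells (6 samples) were not analysed here. Symbols came from a GENCODE table that matched 49326 of 49585 gene IDs.

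CPM was computed on library totals. Differences were tested with edgeR 4.0.16 in R 4.3.3 (filterByExpr with a minimum count of 10, TMM, quasi-likelihood test, Benjamini-Hochberg adjusted p under 0.05, two-sided) over all genes, in 1 fit of 4 libraries per comparison. The SE is the size of the log2 fold change divided by the square root of F. Intervals of ratios between libraries are exact binomial at 95% and, like the 3-fragment floor, reflect counting error alone. Alternatives were relative log expression factors, library totals, DESeq2 1.42.0, limma-voom (limma 3.58.1), no count filter, a replicate block and leaving out each library. For the TKO-tagged columns these were added after seeing the data. Members and lists were chosen with earlier results of these data known. Named genes are all 10 members, and of the wider list those called and the 6 most abundant in organoids, apart from 1 gene that is not reported here. Il34, Folr2, Cd163 and the uncalled surface genes in the plot of ratios between the TKO-tagged columns were named after their values were seen.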

Additional observations from a re-analysis of the deposited data

Results flagged for a closer look

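The TKO-tagged Sox9 columns lie outside the main comparison of organoids and held a macrophage signal above the organoid level. The 10 genes summed to 772 and 500.01 CPM in these columns, against 19.04 and 27.0 CPM in the Sox9-derived and 85.1 and 48.8 CPM in the Ck19-derived organoids.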

How the results depend on the processing

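For Sox9-derived against Ck19-derived organoids, edgeR called 95 genes. DESeq2 called 1628, edgeR without a count filter 506, and the fits without 1 library 0 to 1394 (1692 and 1611 at an unadjusted p under 0.05 where the count was 0). With the replicate block edgeR called 0 (2665 at an unadjusted p under 0.05). The numbers of the replicates are not stated to mark a shared animal or batch. Deviations of equal-numbered libraries correlated at 0.0655 across genes, a value that cannot show whether the libraries were paired. Whether the block is a pairing of samples is thus not known. Of the 10 macrophage genes, 0 were called, against 1 with DESeq2 (Cd68) and 0 to 1 without 1 library. Without Sox9-derived replicate 1 the log2 fold change of Csf1r was −0.82 and without replicate 2 it was 1.29. The cause was not tested. With the TKO-tagged columns in place the counts were 5190 genes and 8 macrophage genes, with Clec4f at 6.45 and Cd68 at 1.37.

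For the TKO-tagged columns against the Ck19-derived organoids, the count of 5190 was 3319 with the replicate block and ran from 881 to 6976 without 1 library. The count of macrophage genes ran from 6 to 9 over all alternatives, with 0 lower, and limma-voom did not call Csf1r (adjusted p = 0.0654). With DESeq2 Marco was called (adjusted p = 0.0497) and with edgeR without a count filter it was not (adjusted p = 0.0982). In the main fit 6 of the 9 members tested passed the filter only through the TKO-tagged columns. These counts of macrophage genes thus support nothing further. The summed CPM of TKO-tagged replicate 1, 772 on library totals, was 1155 on TMM-scaled totals. On library totals and without C1qb it was 498. The 8 genes near 0 in organoids rest on 16 fragments or fewer per organoid library, so their ratios between organoids have wide counting intervals.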
